A study of Mus musculus with 15 samples.

Results

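Expression of 8 amino acid transporter genes of the mouse kidney, Slc6a19, Slc6a18, Slc7a9, Slc7a7, Slc7a8, Slc3a1, Slc3a2 and Slc1a1, was described among 13940 genes with a transcript listed for every mouse. They were taken as a list of known carriers of the renal tubule. The rule uses none of their measured values, but the list was chosen with earlier results of these data known. All 8 were found and passed the filter on low values. Amino acids filtered at the glomerulus are taken back almost entirely by the proximal tubule, in a first step across the brush border and a second step across the basolateral membrane. Many of these carriers work as pairs, in which a light chain moves the amino acid and a heavy chain brings it to the membrane. Inherited loss of single members causes the aminoacidurias, among them Hartnup disorder, cystinuria, lysinuric protein intolerance and dicarboxylic aminoaciduria.

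RNA-seq of renal tissue was available from 15 wild-type C57BL/6 mice, 5 in each of 3 groups, each library from 1 mouse. The mice were male and 8 weeks old, were kept for 1 week before the experiment, and carried osmotic pumps under the skin for 28 days. The Control group received saline and the Ang II group angiotensin II, the pressor peptide, at 500 ng/kg/min. The Ang II + QDG group received the same angiotensin II and, by gavage each day, 1.145 g/kg of QDG (Qingda granule, a herbal formula), where both other groups received water. The comparison of Ang II with Control asks what the infusion did to these genes, and that of Ang II + QDG with Ang II what QDG added. All 5 Control files list 41477 transcripts and all other files 42310, so that in every comparison with Control the treatment and any difference in how the files were made cannot be told apart. Both comparisons with Ang II use the same 5 Ang II mice, so their results are not independent of each other.

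Values were deposited as FPKM (fragments scaled to transcript length and to the mapped fragments of the library) for each transcript, and here the transcripts of a gene were added up. Differences are given on the log2(FPKM + 1) scale, which understates the change of weakly expressed genes, with the adjusted p of limma's moderated test over all 12372 genes tested. The deposited values corresponded to 68928700 to 81322100 mapped fragments per mouse, and to between 499 reads (Slc7a8, in its lowest mouse) and 64147 reads (Slc3a1, in its highest) for a member. Defining markers of the labelled tissue were present in every mouse, with 188 to 237 FPKM of Lrp2 (megalin), 1923 to 3065 FPKM of the phosphate carrier Slc34a1 and 695 to 1308 FPKM of Umod (thick ascending limb). Of all genes, 735 were called in Ang II vs. Control at adjusted p under 0.05, of which 83.3% were higher, and scaling each mouse to the same median lowered that share to 42.2% of 495.

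No member passed the test in any comparison. In Ang II vs. Control 0 of 8 were called, against 5.94% of all genes tested; 3 of 8 had an unadjusted p under 0.05, against 22.7% of all genes, and the exact permutation test over mice gave 1, against 21.8% of all genes by that test. In Ang II + QDG vs. Ang II 0 of 8 were called, against 1.81% of all genes, with 2 of 8 at an unadjusted p under 0.05 (background 16.4%) and 1 by the exact test (background 15.9%). In Ang II + QDG vs. Control 0 of 8 were called (background 0.129%), with 0 of 8 at an unadjusted p under 0.05 (background 14.4%) and 1 by the exact test (background 14.2%). The median difference of the 8 members was -0.06 in Ang II vs. Control, where that of all genes was 0.08, and -0.0028 for QDG added to Ang II, where that of all genes was -0.02. No member had groups that did not overlap in any of these comparisons, while of all genes 6.49% lay higher and 1.42% lower in every Ang II mouse than in every Control mouse, 1.56 and 3.44% in every Ang II + QDG mouse than in every Ang II mouse, and 2.78 and 0.857% in every Ang II + QDG mouse than in every Control mouse.

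**Figure D1:**
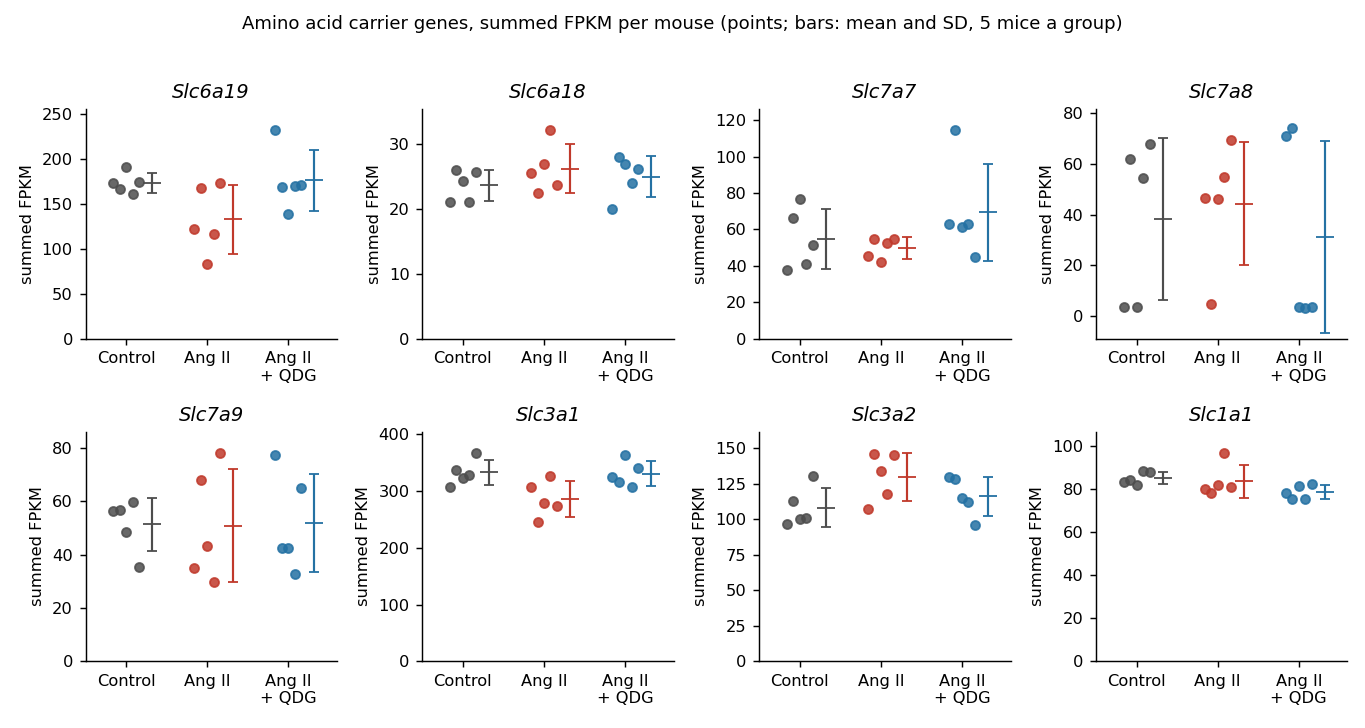
Summed FPKM of the 8 carrier genes (y axis, linear, starting at 0 except where an SD bar reaches below it) in each mouse of the 3 groups (x axis). Points are mice, and the bar beside them is the mean with its SD over 5 mice. Slc3a1 is the most abundant member, Slc1a1 the least variable, and Slc7a8 falls into mice at 2.96 to 4.61 FPKM and mice at 46.2 to 74.3 FPKM.

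Averaged over the 15 mice and compared per transcript length, the members ranked from Slc3a1 (316 FPKM) over Slc6a19 (161 FPKM), Slc3a2 (118 FPKM), Slc1a1 (82.6 FPKM), Slc7a7 (58.0 FPKM), Slc7a9 (51.4 FPKM) and Slc7a8 (37.9 FPKM) to Slc6a18 (24.9 FPKM). Of neighbours in this order, only Slc3a1 and Slc6a19 had separate ranges. Slc6a19 lay above Slc3a2 in 13 of 15 mice, Slc3a2 above Slc1a1 in 15 of 15 and Slc1a1 above Slc7a7 in 14 of 15, whereas Slc7a7 and Slc7a9 (8 of 15 mice), Slc7a9 and Slc7a8 (9 of 15) and Slc7a8 and Slc6a18 (9 of 15) could not be put in an order within their spread. The coefficient of variation over all mice was 6.67% for Slc1a1, 10.3% for Slc3a1, 12.5% for Slc6a18 and 14.1% for Slc3a2, against 21.6% for Slc6a19, 30.9% for Slc7a9, 32.8% for Slc7a7 and 79.4% for Slc7a8.

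Slc6a19 encodes the main sodium-dependent carrier of neutral amino acids in the brush border, the protein lost in Hartnup disorder. The gene lies on chromosome 13 at 73679745-73704865 (GRCm38, minus strand). Its summed level in the 5 Control mice was 173, 166, 191, 161 and 174 FPKM, in the 5 Ang II mice 122, 168, 82.6, 116 and 174 FPKM, and in the 5 Ang II + QDG mice 232, 169, 139, 170 and 170 FPKM. Of the Ang II mice 3 of 5 lay below the lowest Control mouse, while the other two lay within the Control range, and in the Ang II + QDG group 1 of 5 lay above every Ang II mouse. The mean was 133 ± 38.0 FPKM (SD, n = 5) under Ang II, 0.766 of the Control mean of 173 ± 11.2 FPKM, with a log2 difference of -0.43 (SE 0.18; adjusted p = 0.167 by limma). With QDG the mean was 176 ± 34.2 FPKM, a log2 difference of 0.44 from Ang II (SE 0.18; adjusted p = 0.229 by limma). Both directions were kept under the 3 rescalings of the libraries, with -0.53 to -0.45 for Ang II vs. Control and 0.45 to 0.53 for Ang II + QDG vs. Ang II, and leaving out Ang II mouse 3, the lowest, gave -0.27 for Ang II vs. Control and 0.28 for QDG added to Ang II.

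Nearly all of the Slc6a19 signal was assigned to transcripts that the annotation does not call coding. Slc6a19-202, annotated as a processed transcript, averaged 110 FPKM and the retained-intron transcript Slc6a19-205 averaged 47.0 FPKM, while the protein-coding Slc6a19-201 averaged 1.53 FPKM and made up 0.0869 to 4.41% of the gene sum in a mouse. Counted by Slc6a19-201 alone, the log2 difference of Ang II vs. Control was -0.03 in place of -0.43. Slc6a19-202 starts in a first exon of its own, 148 bases long at chr13:73692489-73692636, and shares 3444 of its 3592 bases with Slc6a19-201, so that only reads in its other 148 bases, or in 492 bases of Slc6a19-201, can tell them apart. Its longest reading frame has 539 codons, of which the last 519 are those that end the 634-codon frame of Slc6a19-201. The labels name rRNA depletion alone and the methods also a poly(A) selection, which bears on how retained-intron signal can be read, and the amount of unspliced RNA in the libraries was not measured. The split between both abundant transcripts was uneven over mice. Control mouse 5 had 36.4 FPKM of Slc6a19-202 and 132 FPKM of Slc6a19-205, and Ang II + QDG mouse 2 had 15.03 and 145 FPKM, whereas in the other 13 mice Slc6a19-202 was the larger, at 64.6 to 195 FPKM. The gene sums of those 2 mice, 174 and 169 FPKM, lay within the range of their groups.

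The only Slc6a19 promoter window in the RefSeq table used here (GRCm38.p6) ends at the start of Slc6a19-202, at distance 0 bases, and not at that of Slc6a19-201. Windows were found for 7 of 8 members (12 windows; Slc6a18 had none). The 250 bases before that start are shown because they lie upstream of the first exon of the transcript with most of the gene's signal, with a CCAAT box in capitals.
Slc6a19, chr13:73692637-73692886, minus strand: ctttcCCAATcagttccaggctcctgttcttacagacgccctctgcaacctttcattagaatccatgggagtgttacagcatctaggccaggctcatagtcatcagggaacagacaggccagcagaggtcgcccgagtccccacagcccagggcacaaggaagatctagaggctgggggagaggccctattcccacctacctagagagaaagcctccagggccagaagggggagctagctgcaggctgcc
CCAAT was searched on both strands, as were all motifs named here, and 33.8% of the 32851 promoter windows of the same length held it.

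Slc6a18, the neighbour of Slc6a19 on chromosome 13 (73661752-73678023, minus strand), encodes a brush border carrier of glycine and other neutral amino acids, and had the lowest mean of the members, though Slc7a8 lay below it in 6 of 15 mice. It had 20.99, 25.9, 24.3, 21.01 and 25.6 FPKM in the Control mice, 25.5, 22.5, 26.8, 32.1 and 23.7 FPKM in the Ang II mice, and 19.9, 27.9, 26.8, 23.9 and 26.1 FPKM in the Ang II + QDG mice. The 3 groups overlapped, and Ang II mouse 4 stood above all other mice. The log2 difference was 0.14 (SE 0.11; adjusted p = 0.492 by limma) for Ang II vs. Control and -0.06 (adjusted p = 0.828 by limma) for Ang II + QDG vs. Ang II, and without Ang II mouse 4 these were 0.063 and 0.012. Of its transcripts, 7 averaged at least 1 FPKM, all annotated as protein coding and together with the rarer ones 84.8 to 100% of the gene sum. The ratio of Slc6a19 to Slc6a18, which does not depend on the scaling of a library, was 6.41 to 8.25 in Control mice, 3.08 to 7.47 in Ang II mice and 5.18 to 11.7 in Ang II + QDG mice.

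Slc7a9 encodes the light chain of the brush border exchanger for cystine and the dibasic amino acids, and its loss is a cause of cystinuria. The gene lies on chromosome 7 at 35448796-35466036 (plus strand). Its sum was 56.3, 56.9, 48.5, 59.7 and 35.3 FPKM in the Control mice, 35.0, 68.0, 43.4, 29.9 and 78.3 FPKM in the Ang II mice, and 77.3, 42.6, 42.6, 32.7 and 64.9 FPKM in the Ang II + QDG mice. The 3 means were close, at 51.3 ± 9.88, 50.9 ± 21.2 and 52.0 ± 18.4 FPKM, but the spread in both Ang II-infused groups was wider, with mice below and above the Control range in each. The log2 difference between Ang II and Control was -0.08 with a 95% interval from -0.69 to 0.52, which is 0.621 to 1.43-fold on that scale, so that differences within these bounds could not be told from none.

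Within the Slc7a9 sum, however, the share of protein-coding transcripts, a split made after seeing the data, differed. It was 31.4, 34.1, 27.7, 39.0 and 30.0% in the Control mice and 21.8, 21.9, 24.0, 17.4 and 18.0% in the Ang II mice. Every Ang II mouse lay below every Control mouse, a separation found in 5.36% of the 4180 genes that have both coding and other transcripts, and among the 7 members of that kind only in Slc7a9. The opposite separation, every Ang II mouse above every Control mouse, was found in 0.311% of these genes. The Ang II + QDG mice had 13.98, 11.3, 15.5, 11.5 and 27.0%, below the lowest Control mouse in all 5, which was the case for 1.36% of these genes, and lower than every Ang II mouse in 4 of 5. The most abundant transcript, the retained-intron Slc7a9-206 (30.3 FPKM on average), made up 48.2 to 57.5% of the sum in Control, 57.2 to 66.8% in Ang II and 58.6 to 74.3% in Ang II + QDG mice. Since the Control files hold another transcript list than all others, the infusion and a separate quantification of the Control libraries cannot be told apart in these shares, although every transcript of Slc7a9 listed at all is in all 15 files.

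As levels, the coding transcripts of Slc7a9 summed to 16.9 ± 4.98 FPKM in the Control mice, 10.4 ± 4.13 FPKM in Ang II and 8.70 ± 5.62 FPKM in Ang II + QDG mice, and the others to 34.5 ± 5.61, 40.5 ± 17.3 and 43.3 ± 14.5 FPKM. The log2 difference of the coding sum was -0.68 (SE 0.36; adjusted p = 0.289 by limma) in Ang II vs. Control and -1.01 (SE 0.36; unadjusted p = 0.0140, adjusted p = 0.224 by limma) in Ang II + QDG vs. Control, so that neither passed the test. Slc7a9-206 shares 1622 bases with the coding Slc7a9-201 (1940 bases), and its longest reading frame holds the last 303 of 487 codons. The share of a gene's reads given to such overlapping transcripts is an estimate of the authors' quantification. Over all genes with both kinds of transcript a lower coding share in every Ang II mouse was found in 224 genes and a higher one in 13.

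**Figure D2:**
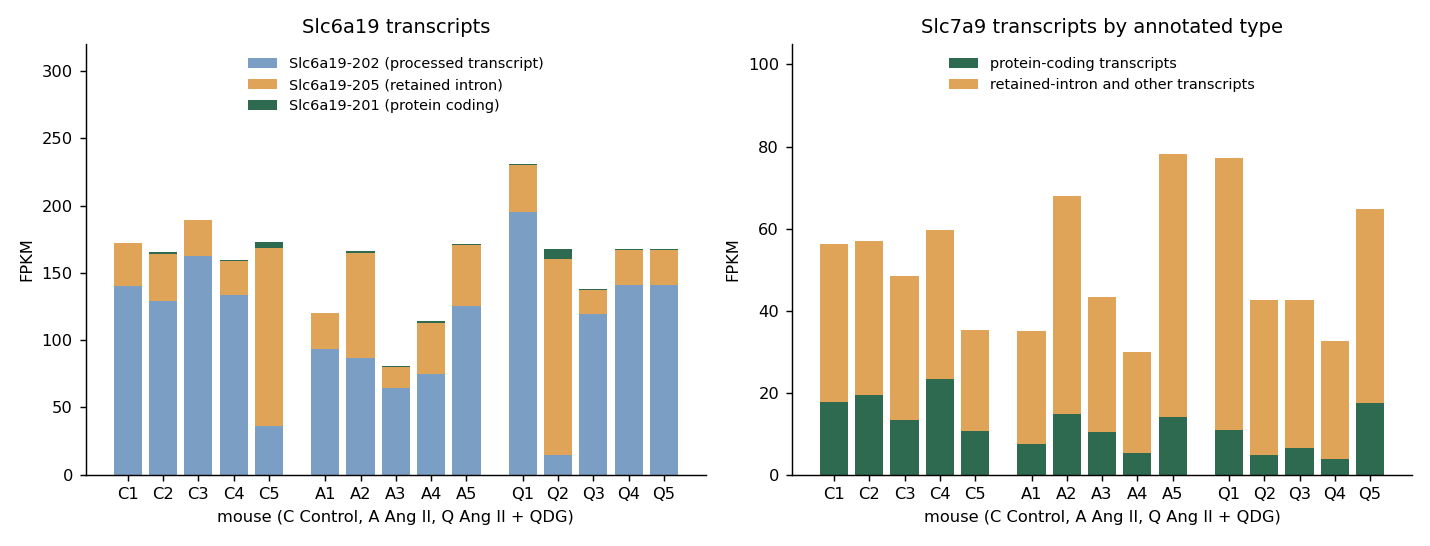
FPKM of single transcripts in each of the 15 mice (x axis; C Control, A Ang II, Q Ang II + QDG). Left, the 3 most abundant transcripts of Slc6a19, stacked; Slc6a19-205 exceeds Slc6a19-202 in Control mouse 5 and Ang II + QDG mouse 2 alone. Right, protein-coding and other transcripts of Slc7a9, stacked; the coding share is 27.7 to 39.0% in Control mice and 17.4 to 24.0% in Ang II mice.

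Slc3a1 encodes the heavy chain that brings the Slc7a9 protein to the brush border, and is the other gene of cystinuria. It lies on chromosome 17 at 85028376-85064236 (plus strand) and has 1 annotated transcript, so its value needs no split. The levels were 307, 336, 323, 328 and 367 FPKM in the Control mice, 306, 245, 278, 325 and 273 FPKM in the Ang II mice, and 324, 316, 363, 306 and 340 FPKM in the Ang II + QDG mice. Of the Ang II mice 4 of 5 lay below the lowest Control mouse, the first of them by under 1 FPKM, and Ang II mouse 4 lay within the Control range. The mean was 332 ± 22.3 FPKM in Control, 286 ± 30.9 FPKM in Ang II and 330 ± 22.2 FPKM in Ang II + QDG mice. Ang II vs. Control gave a log2 difference of -0.22 (SE 0.08, 95% interval -0.38 to -0.06; unadjusted p = 0.0106, adjusted p = 0.0974 by limma), or 0.858-fold. Ang II + QDG vs. Ang II gave 0.21 (SE 0.08, 95% interval 0.05 to 0.37; unadjusted p = 0.0137, adjusted p = 0.169 by limma), or 1.16-fold. The exact two-sided permutation test over the 5 mice a group gave p = 0.0317 and p = 0.0476 for these differences, where the smallest p it can give is 0.00794. With each mouse scaled to the same median of all genes, the Ang II vs. Control difference became -0.33 and passed the test (adjusted p = 0.0311 by limma), whereas under no other alternative did a member pass with an adjusted p.

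The 250 bases before the RefSeq start of Slc3a1 are shown because this is the most abundant member and the only one whose window holds CAAAGTCCA, an element bound by the proximal tubule factor HNF4. It lies 39 bases before the start, with TATAAA matches that begin 124 and 18 bases before the start on the plus strand and 20 bases before it on the minus strand, in part over each other, all in capitals.
Slc3a1, chr17:85028097-85028346, plus strand: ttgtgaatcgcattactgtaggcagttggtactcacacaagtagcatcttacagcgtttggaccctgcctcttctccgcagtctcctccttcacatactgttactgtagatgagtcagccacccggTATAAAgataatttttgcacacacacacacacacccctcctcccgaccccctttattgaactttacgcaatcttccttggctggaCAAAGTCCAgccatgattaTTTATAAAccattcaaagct
CAAAGTCCA was present in 0.384% of all windows (126 of 32851) and TATAAA in 12.4%. The GC box GGGCGG was in 32.7% of all windows and in those of Slc1a1, Slc3a2, Slc7a7 and Slc7a8. A match describes letters only.

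Slc7a7 encodes the basolateral light chain that exports dibasic amino acids in exchange for neutral ones with sodium, and is the gene of lysinuric protein intolerance. It lies on chromosome 14 at 54369442-54417780 (minus strand). The sums were 37.7, 66.1, 76.7, 41.0 and 51.6 FPKM in the Control mice, 45.3, 54.9, 42.0, 52.7 and 54.8 FPKM in the Ang II mice, and 62.9, 115, 61.1, 62.9 and 45.0 FPKM in the Ang II + QDG mice. With QDG 4 of 5 mice lay above the highest Ang II mouse, and the Control mice spanned both groups apart from the value of 115 FPKM. The log2 difference was -0.08 (SE 0.23; adjusted p = 0.871 by limma) for Ang II vs. Control and 0.40 (SE 0.23; adjusted p = 0.408 by limma) for Ang II + QDG vs. Ang II. Without Ang II + QDG mouse 2, at 115 FPKM, the second was 0.21, and leaving out any 1 mouse gave 0.21 to 0.54.

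Slc7a7 reads were assigned to transcripts from several starts. Slc7a7-202, coding, with its start at position 54410216, averaged 40.0 FPKM and ranged from 28.0 to 50.7 FPKM. Slc7a7-201, also coding, with its start at 54409460, averaged 8.39 FPKM but was under 1 FPKM in 5 mice, 3.06 to 13.3 FPKM in 9 mice and 58.4 FPKM in Ang II + QDG mouse 2, the mouse of the highest gene sum. Both share 1918 bases, and their first exons are 139 and 211 bases long. Their windows of 250 bases, whose RefSeq starts lie 13 and 12 bases from the annotated ones, are shown because these starts differed in steadiness over mice.
Slc7a7 at the start of Slc7a7-202, chr14:54410204-54410453, minus strand: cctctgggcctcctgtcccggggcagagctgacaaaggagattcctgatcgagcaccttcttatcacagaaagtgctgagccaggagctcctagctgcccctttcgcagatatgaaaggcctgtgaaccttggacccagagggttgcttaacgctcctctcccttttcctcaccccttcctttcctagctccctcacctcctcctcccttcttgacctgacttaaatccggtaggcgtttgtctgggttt
Slc7a7 at the start of Slc7a7-201, chr14:54409473-54409722, minus strand: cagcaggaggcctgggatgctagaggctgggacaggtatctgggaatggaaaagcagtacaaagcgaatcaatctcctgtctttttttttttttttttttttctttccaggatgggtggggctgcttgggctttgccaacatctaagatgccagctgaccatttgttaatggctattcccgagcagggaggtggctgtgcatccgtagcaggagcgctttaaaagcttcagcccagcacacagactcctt
Neither window held any of the motifs named here.

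Slc7a8 encodes the basolateral light chain for neutral amino acids, and lies on chromosome 14 at 54722209-54781946 (minus strand). Its annotated sum was 3.38, 61.8, 3.57, 54.3 and 67.8 FPKM in the Control mice, 46.5, 4.61, 46.2, 55.0 and 69.5 FPKM in the Ang II mice, and 71.1, 74.3, 3.43, 2.96 and 3.66 FPKM in the Ang II + QDG mice. In each group the mice fell into a low and a high set with nothing between, and the sets did not follow the groups, with 2 of 5, 1 of 5 and 3 of 5 mice low. Its coding transcript Slc7a8-201 was at 0.0525 to 0.503 FPKM in the 6 low mice and at 45.6 to 73.8 FPKM in the other 9. The log2 difference was 0.68 (95% interval -1.79 to 3.14; adjusted p = 0.777 by limma) for Ang II vs. Control and -1.36 (95% interval -3.83 to 1.11; adjusted p = 0.607 by limma) for Ang II + QDG vs. Ang II, intervals too wide to compare the groups.

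Among the 11141 transcripts assembled by the authors, which carry no gene name or position in the files, MERGE.8101.2 ran opposite to Slc7a8-201. It was at 50.7 to 68.5 FPKM in the 6 mice where Slc7a8-201 was low and at 0 to 4.25 FPKM in the 9 where it was high (Pearson r = -0.97 on the log2 scale over 15 mice, the lowest of all assembled transcripts; the next, at -0.87, reached 2.11 FPKM at most). The sum of both was 49.3 to 76.2 FPKM over all mice, with 64.6 ± 4.65 FPKM in Control, 59.0 ± 9.57 FPKM in Ang II and 62.6 ± 12.02 FPKM in Ang II + QDG mice. With MERGE.8101.2 added to the gene, a step chosen after seeing the data, the log2 difference for Ang II vs. Control was -0.14 (95% interval -0.41 to 0.12, adjusted p = 0.537 by limma). For Ang II + QDG vs. Ang II it was 0.10 (95% interval -0.16 to 0.37, adjusted p = 0.738 by limma). Both signs turned and both intervals were far narrower. MERGE.8101.2 was picked for running opposite to Slc7a8-201 in these same mice, so the narrower intervals follow at least in part from that choice. That MERGE.8101.2 belongs to Slc7a8 was not tested, as the files give it no position.

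**Figure D3:**
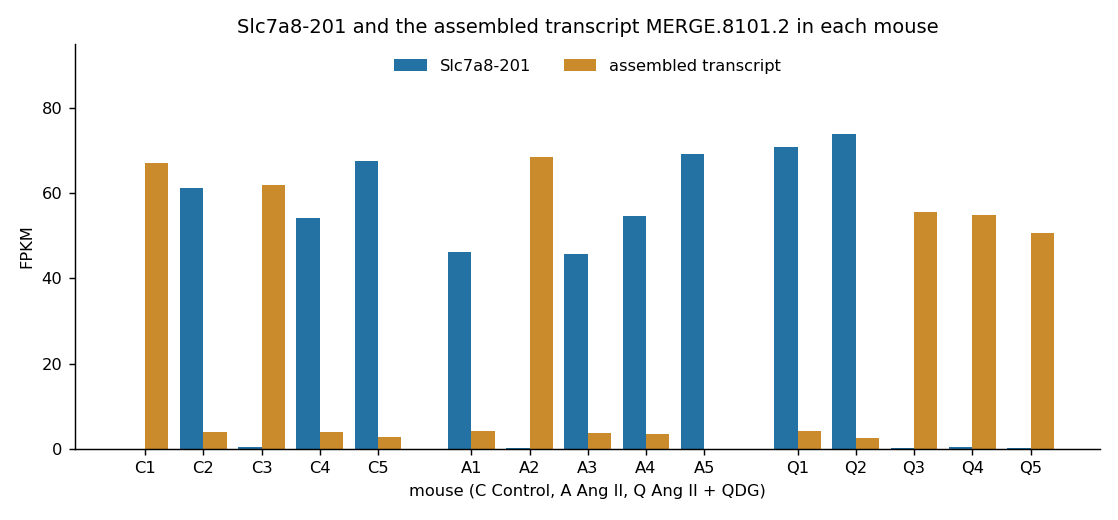
FPKM (y axis) of Slc7a8-201 and of the assembled transcript MERGE.8101.2 in each mouse (x axis; C Control, A Ang II, Q Ang II + QDG). In 6 mice the assembled transcript is at 50.7 to 68.5 FPKM and Slc7a8-201 under 1 FPKM, and in the other 9 mice Slc7a8-201 is at 45.6 to 73.8 FPKM.

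Slc3a2 encodes the heavy chain shared by the Slc7a7 and Slc7a8 proteins and by other light chains, and lies on chromosome 19 at 8706882-8723369 (minus strand). It had 96.9, 112, 100, 101 and 130 FPKM in the Control mice, 108, 146, 134, 118 and 145 FPKM in the Ang II mice, and 130, 128, 115, 112 and 96.0 FPKM in the Ang II + QDG mice. In the Ang II group 3 of 5 mice lay above the highest Control mouse, and the Ang II + QDG mice lay within the range of the other groups but for the lowest. The mean was 130 ± 16.9 FPKM under Ang II, 1.2 times the Control mean of 108 ± 13.7 FPKM, with a log2 difference of 0.26 (SE 0.11; unadjusted p = 0.0303, adjusted p = 0.169 by limma), and 116 ± 13.7 FPKM with QDG, -0.16 from Ang II (adjusted p = 0.507 by limma), or -0.094 without Ang II + QDG mouse 5. The sign of the first difference was opposite to that of the other heavy chain, Slc3a1, under all 3 rescalings (0.16 to 0.25 for Slc3a2 and -0.33 to -0.24 for Slc3a1). Slc3a2-201, coding, made up 96.5 to 98.2% of the sum.

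Slc1a1 encodes the brush border carrier of glutamate and aspartate, and lies on chromosome 19 at 28835049-28913960 (plus strand). It had 83.3, 84.4, 82.1, 88.5 and 88.0 FPKM in the Control mice, 80.1, 78.3, 82.0, 97.2 and 81.4 FPKM in the Ang II mice, and 78.2, 75.7, 81.7, 75.5 and 82.6 FPKM in the Ang II + QDG mice. Of the Ang II mice and of the Ang II + QDG mice 4 of 5 each lay below the lowest Control mouse, the nearest Ang II mouse by under 1 FPKM, and Ang II mouse 4 stood above all others. The log2 difference was -0.03 (95% interval -0.15 to 0.09; adjusted p = 0.813 by limma) for Ang II vs. Control and -0.08 (adjusted p = 0.503 by limma) for Ang II + QDG vs. Ang II. Without Ang II mouse 4 these were -0.083 and -0.031, and leaving out any 1 mouse gave -0.083 to -0.0055 for Ang II vs. Control. For Ang II + QDG vs. Control it was -0.11 (SE 0.06; unadjusted p = 0.0685, adjusted p = 0.386 by limma), and the exact permutation test gave p = 0.0159, unadjusted. Its intervals were the narrowest of the members, at 0.90 to 1.07-fold for Ang II vs. Control, and the coding Slc1a1-201 made up 90.5 to 97.4% of its sum.

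**Figure D4:**
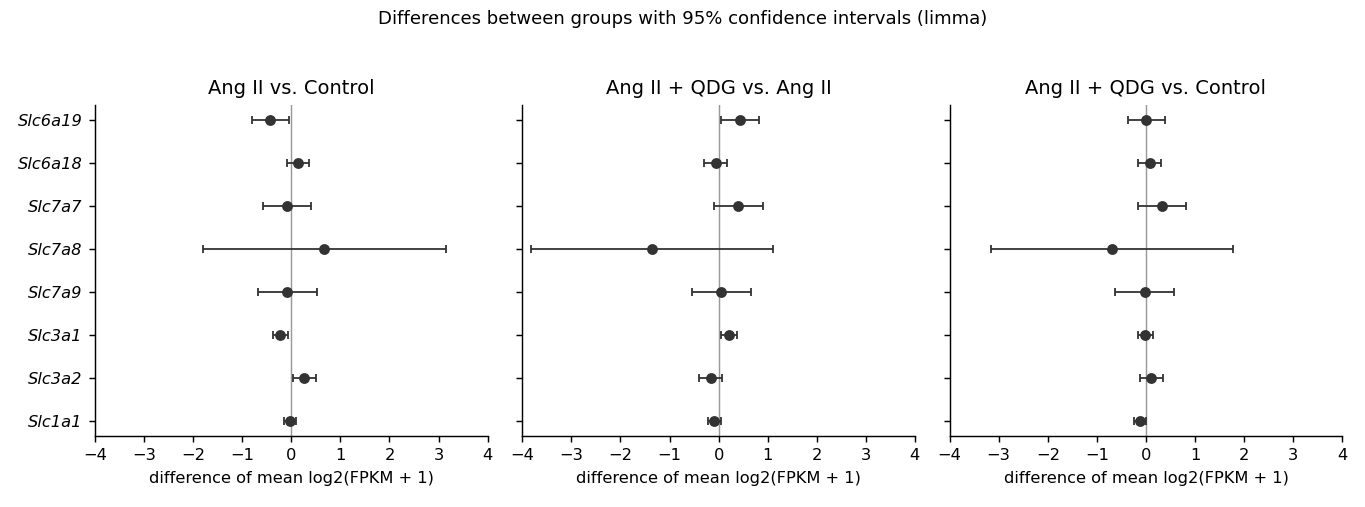
Difference of mean log2(FPKM + 1) between groups (x axis) for the 8 genes (y axis) in the 3 comparisons, with 95% confidence intervals from limma. The intervals of Slc6a19, Slc3a1 and Slc3a2 leave out 0 in Ang II vs. Control before adjustment, and that of Slc7a8 spans -1.79 to 3.14.

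Single transcripts gave no call either. Of the members' 37 listed transcripts, 29 were tested, and 0 passed at adjusted p under 0.05 by limma in Ang II vs. Control (background 0.691% of 28812 transcripts; 4 had an unadjusted p under 0.05, Slc6a18-201, Slc6a18-207, Slc3a1-201 and Slc3a2-201, background 15.9%) and 0 for QDG added to Ang II (background 0.0972%; 1 had an unadjusted p under 0.05, Slc3a1-201, background 11.3%). Opposite-strand genes overlap 4 members in the annotation, Slc6a19 (Slc6a19os), Slc7a7 (Oxa1l), Slc3a1 (Prepl) and Slc1a1 (Gm5822 and 4430402I18Rik), and the counting is not stated to use strand, so reads of the shared stretches cannot be told apart.

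Other amino acid carriers of the kidney did not pass the test either. Of 36 on the list, 26 were tested, and in Ang II vs. Control 0 were called by limma, with 18 higher and 8 lower and a median of 0.09, near that of all genes (0.08). The most abundant were Slc7a13, a partner of the Slc3a1 protein in the straight proximal tubule (364 ± 82.2, 384 ± 48.2 and 306 ± 59.1 FPKM in the Control, Ang II and QDG-treated mice), the taurine carrier Slc6a6 (113 ± 18.4, 108 ± 11.4 and 113 ± 11.4 FPKM) and the GABA carrier Slc6a13 (53.0 ± 10.3, 66.4 ± 19.4 and 56.3 ± 16.4 FPKM). An unadjusted p under 0.05 was found for 3 that were higher, the glutamine carrier Slc1a5 (0.56, adjusted p = 0.0639), the cationic amino acid carrier Slc7a1 (0.35, adjusted p = 0.218) and its lysosomal counterpart Pqlc2 (0.56, adjusted p = 0.116), and for 1 that was lower, the basolateral glutamine carrier Slc38a3 (-1.12, adjusted p = 0.124), all by limma and named after their values were seen. In Ang II + QDG vs. Ang II 0 were called, with 14 higher and 12 lower, and 1 with an unadjusted p under 0.05, the proline carrier Slc6a20a (0.39, adjusted p = 0.0983 by limma).

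**Figure D5:**
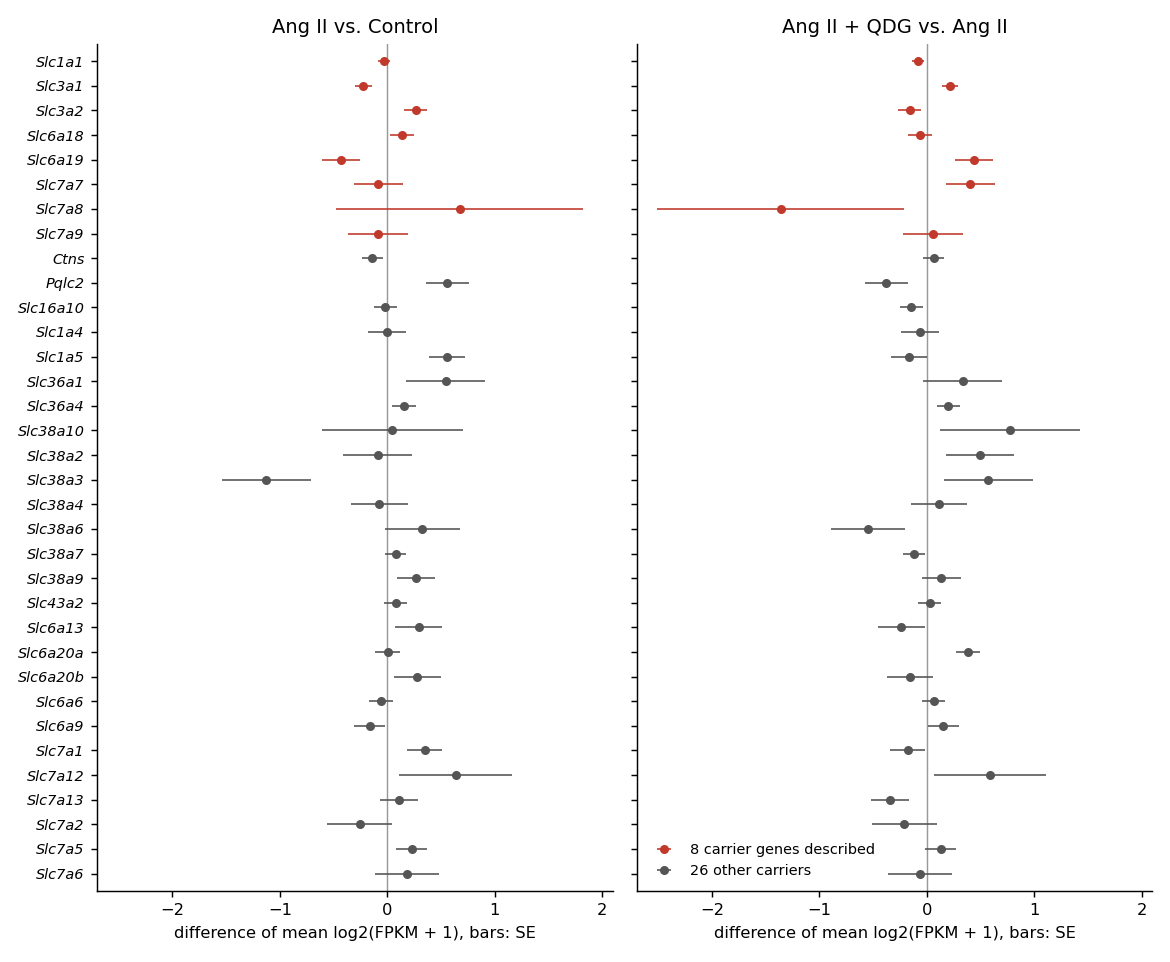
Difference of mean log2(FPKM + 1) (x axis) with its standard error for the 8 carrier genes described and 26 other amino acid carriers (y axis), for Ang II against Control (left) and for QDG added to Ang II (right). No gene shown passed the test at adjusted p under 0.05.

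Proteins that act with these carriers were measured in the same libraries. Of 9 accessory proteins and peptide carriers 8 were tested, and in Ang II vs. Control 0 were called by limma, with 2 higher and 6 lower and a median of -0.13. Cltrn (collectrin), which brings the Slc6a19 protein to the brush border, averaged 1086 ± 57.5 FPKM in the Control mice and 927 ± 67.7 FPKM in the Ang II mice, with every Ang II mouse below every Control mouse (as for 1.42% of all genes) and a log2 difference of -0.23 (SE 0.07; adjusted p = 0.0566 by limma), and 976 ± 77.7 FPKM with QDG. The brush border enzymes Mep1a (693 ± 46.2 and 596 ± 93.8 FPKM; -0.23, adjusted p = 0.176 by limma) and Ggt1 (469 ± 18.3 and 493 ± 21.8 FPKM; 0.07, adjusted p = 0.514 by limma) were the next most abundant. At an unadjusted p under 0.05 there were 2, Cltrn and Mep1a, both lower. In Ang II + QDG vs. Ang II 0 of 8 were called by limma, with 4 higher and 4 lower, of which 1 each had an unadjusted p under 0.05.

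Hnf4a, a nuclear receptor and regulator of the proximal tubule, was at 112 ± 17.5, 110 ± 17.9 and 97.4 ± 14.3 FPKM in the Control, Ang II and QDG-treated mice. Its log2 difference was -0.03 (adjusted p = 0.932 by limma) for Ang II vs. Control and -0.17 (adjusted p = 0.559 by limma) for QDG added to Ang II. Of 15 genes of the amino acid response, which cells switch on when amino acids run short, 12 were tested and 1 was called in Ang II vs. Control. Atf4, the transcription factor of that response, rose from 33.5 ± 5.42 to 45.6 ± 7.29 FPKM (log2 difference 0.44, adjusted p = 0.0488 by limma), higher in every Ang II mouse than in every Control mouse (as for 6.49% of all genes), and the call was lost under 22 of 25 alternatives, with adjusted p up to 0.194. None of the others tested was called, or had an unadjusted p under 0.05. With QDG added to Ang II, 0 of 12 were called by limma, 2 of them lower at an unadjusted p under 0.05. The serine synthesis enzyme Psat1 (22.0 ± 3.23, 26.9 ± 14.3 and 19.6 ± 4.2 FPKM) and the leucine sensor Sesn2 (19.6 ± 1.85, 20.0 ± 3.37 and 22.2 ± 6.44 FPKM) were the most abundant after Atf4, as Control, Ang II and QDG-treated means.

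Markers of the kidney's cell types were measured beside the members. In bulk tissue, fewer cells of a type and less RNA per cell cannot be told apart. The 14 proximal tubule markers summed to 9029 to 19677 FPKM in Control, 8686 to 10363 FPKM in Ang II and 11064 to 15231 FPKM in Ang II + QDG mice, a spread carried by the androgen-regulated Kap, and without it to 6107 to 7111, 6252 to 7571 and 6080 to 7347 FPKM. Of these markers 0 of 14 were called in Ang II vs. Control, with 6 higher and 8 lower (2 and 3 at an unadjusted p under 0.05), and 0 for QDG added to Ang II (3 higher and 1 lower at an unadjusted p under 0.05). The 7 markers of the straight proximal tubule summed to 428 to 717, 534 to 769 and 334 to 608 FPKM, and in Ang II vs. Control 0 were called by limma. There Acy3 (0.46, adjusted p = 0.0855) and Atp11a (0.79, adjusted p = 0.124) had an unadjusted p under 0.05 and lay higher in every Ang II mouse than in every Control mouse, as for 6.49% of all genes. With QDG 1 of these markers, Acy3, fell from 13.6 ± 0.512 to 6.78 ± 1.63 FPKM in Ang II + QDG vs. Ang II (log2 difference -0.93, adjusted p = 0.0141 by limma). Atp11a did not pass (-1.12, adjusted p = 0.0685 by limma), and both lay lower in every Ang II + QDG mouse than in every Ang II mouse, as for 3.44% of all genes. Markers of other cells were called higher in Ang II vs. Control for the podocyte gene Podxl (0.35, adjusted p = 0.0278), 1 of 4 intercalated cell genes (Slc26a4, 0.49, adjusted p = 0.0312), 1 of 5 endothelial genes (Ehd3, 0.51, adjusted p = 0.0286) and 1 of 6 fibroblast and pericyte genes (Pdgfrb, 1.13, adjusted p = 0.0468), all by limma. The share of all genes called higher was 4.95%. Called or not, 4 of 4 podocyte, 4 of 4 intercalated cell, 4 of 5 endothelial and 5 of 6 fibroblast and pericyte genes had differences above 0. The endothelial Emcn (-0.37, adjusted p = 0.332 by limma) and Dcn of the fibroblast and pericyte list (-0.49, adjusted p = 0.273 by limma) were lower. Of 25 alternatives Podxl lost its call in 8, Ehd3 in 9, Slc26a4 in 10 and Pdgfrb in 17. In the thick ascending limb, distal convoluted tubule, principal cell, leukocyte and tubular injury lists (5, 5, 6, 4 and 4 tested) 0 were called by limma in Ang II vs. Control, with 0, 3, 1, 0 and 0 at an unadjusted p under 0.05. For QDG added to Ang II 0 of them were called by limma as well, with 3, 1, 1, 1 and 1 at an unadjusted p under 0.05. The thick ascending limb list summed to 1192 to 1608 FPKM in Control, 953 to 1464 FPKM in Ang II and 1349 to 1794 FPKM in Ang II + QDG mice. Of the thick ascending limb genes 4 of 5 had log2 differences above 0, none of which passed the test, and those with an unadjusted p under 0.05 were Umod (log2 difference 0.36, adjusted p = 0.180), the sodium, potassium and chloride carrier Slc12a1 (1.25, adjusted p = 0.215) and Cldn16 (0.29, adjusted p = 0.191), all by limma. The others were the leukocyte gene Lyz2 (0.99, adjusted p = 0.192), Aqp3 of principal cells (0.32, adjusted p = 0.275), Trpm6 of the distal convoluted tubule (-0.54, adjusted p = 0.201) and the injury marker Clu (-0.99, adjusted p = 0.243), by limma. Lyz2 was at 58.0 FPKM in Ang II + QDG mouse 4 and at 12.6 to 20.3 FPKM in the rest of that group. Clu was at 18.3 FPKM in Ang II + QDG mouse 1 and at 90.1 to 133 FPKM in the rest of that group. Intercalated cell, endothelial, and fibroblast and pericyte genes gave 0 calls by limma with QDG, and 0, 0 and 1 at an unadjusted p under 0.05. Havcr1, the defining marker of the injured tubule, had no listed transcript, and no other defining marker of a cell type was at 0 in any mouse. Mitochondrial transcripts held 18.5 to 20.7% of the FPKM in Control, 15.4 to 16.0% in Ang II and 16.9 to 19.8% in Ang II + QDG mice. The part of these markers in the members' differences was not tested, and that of mitochondrial transcripts only by rescaling without them, which gave -0.45 for Slc6a19 and -0.24 for Slc3a1 in Ang II vs. Control.

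The genes whose log2 levels ran most like each member over the 15 mice were looked up among 12371 others, as a description over mice that share their groups. For Slc6a19 they included Pde6a (Pearson r = 0.94, Spearman rho = 0.86), and for Slc3a1 they were Cdhr2, a protocadherin of the brush border (0.94 and 0.93), and Hibch, of valine breakdown (0.90 and 0.76). For Slc3a2 they were Cotl1 (0.92 and 0.89) and Sugp1 (0.89 and 0.91), and for Slc7a8 Atp6v0a2 (0.90 and 0.72) and Xab2 (0.87 and 0.65). Slc7a8 fell into a low and a high set of mice, so its r values largely reflect that split. Slc7a9 ran most like Iyd (0.86 and 0.87) and Nktr (0.81 and 0.81), Slc6a18 like Cdyl (0.85 and 0.87) and Ppm1l (0.81 and 0.85), and Slc7a7 like H13 (0.82 and 0.68) and Shmt1, a serine and glycine enzyme (0.80 and 0.83). The lowest values were those of Slc1a1, with Rnf26 (0.78 and 0.64) and Acox2 (0.75 and 0.70).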

How the data were processed

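Renal RNA of 15 mice was sequenced, 1 library a mouse, after rRNA depletion per the labels, to which the study's methods add a poly(A) selection. The deposited values are FPKM per transcript, made by the authors on mm10; the submitters' processing notes also name limma, and the aligner, assembler and annotation are not given in the sources used here. Control files list 41477 transcripts and the others 42310, and whether the groups were quantified separately is not given in the sources used here; the 40054 in all 15 files were used, 11141 of them assembled without a gene name (9.57 to 11.9% of the FPKM). Of 31301 Ensembl identifiers 31254 were in GENCODE M21, and FPKM were summed by gene. Below 200 reads, 98.3 to 98.5% of values were whole reads (tolerance 0.02), from which each mouse's total was taken. Such totals cover counting error only.

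The members and lists were chosen with earlier results of these data known. Genes or transcripts that reached 1 FPKM in 5 or more mice were tested by limma 3.58.1 (R 4.3.3; moderated test with trend on log2(FPKM + 1), 15 mice in 1 fit, Benjamini-Hochberg over all features of a comparison, threshold 0.05, two-sided). The script was tested on simulated data. Named were the 8 members, their transcripts of at least 1 FPKM, from each other list the called genes and, outside the marker lists (given as sums), the 3 most abundant, and for each member the 2 genes most like it. Promoter windows came from RefSeq (GRCm38.p6) and reading frames from GENCODE M21, read with Python 3.11.15. Alternatives were the pseudocount, the filter, 3 rescalings, the transcripts summed, the mice and trend in the fit, the exact permutation test and leaving out each mouse. Havcr1 and some other list genes without a listed transcript, and Krt20 and others below the filter, were not analysed here. Some genes that the naming rule covers are not reported here.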

Additional observations from a re-analysis of the deposited data

Results flagged for a closer look

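In 24 groups of 5 mice (8 members in 3 groups), the highest or lowest mouse was set against the others by Dixon's ratio, with 0.71 as the critical value, which chance exceeds in about 1 of 20 groups. A single mouse stood apart in 2 of them. For Slc7a7, the highest of the Ang II + QDG mice had 115 FPKM, where the next had 62.9 FPKM and the lowest 45.0 FPKM (ratio 0.743); this is the mouse with 58.4 FPKM of Slc7a7-201. For Slc1a1, the highest of the Ang II mice had 97.2 FPKM, where the next had 82.0 FPKM and the lowest 78.3 FPKM (ratio 0.804).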

How the results depend on the processing

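Of 627 values of the 8 genes under alternatives, 596 kept their direction and side of the threshold, 27 turned direction and 4 passed the threshold where the main value had not. Those 4 were Slc3a1 in Ang II vs. Control with median scaling and, by the exact permutation test without adjustment, Slc3a1 in both comparisons with Ang II and Slc1a1 in Ang II + QDG vs. Control. Slc6a19, Slc3a1, Slc3a2 and Slc1a1 kept their sign in both comparisons with Ang II under all of them. The signs that turned belonged to values near 0 or to Slc7a8. In Ang II + QDG vs. Control they were Slc3a1 with quantile normalization (0.024) and Slc6a19 (-0.083) and Slc6a18 (-0.012) with median scaling, and leaving out 1 mouse gave ranges of -0.18 to 0.12 for Slc7a9, -0.097 to 0.087 for Slc6a19 and -0.044 to 0.027 for Slc3a1. In Ang II vs. Control the ranges without 1 mouse crossed 0 for Slc7a7 (-0.20 to 0.0496, positive without Control mouse 3) and Slc7a9 (-0.26 to 0.079, positive without Ang II mouse 1 or 4). For QDG added to Ang II, Slc7a9 was -0.33 by coding transcripts alone and -0.11 to 0.23 without 1 mouse, and Slc6a18 was -0.11 to 0.0117 without 1 mouse. Slc7a8 turned to -0.14 and 0.10 with the assembled transcript added, which was chosen after seeing the data, as were the split of Slc7a9 and the marker sum without Kap. The cause of the turned signs was not tested.

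Counts over all genes moved more. The 735 genes of Ang II vs. Control became 408 with coding transcripts only and 456 with only the groups compared in the fit, the 224 of Ang II + QDG vs. Ang II became 58 in that fit, and the 16 of Ang II + QDG vs. Control became 80 with absent transcripts as 0, 6 with coding transcripts only and 4 in that fit. Leaving out 1 mouse gave 338 to 797, 53 to 249 and 0 to 110 genes, and 29 to 359 and 11 to 43 transcripts in both comparisons with Ang II. The fewest genes in Ang II vs. Control came without Control mouse 1 (338), Ang II mouse 5 (348), Control mouse 3 (361) or Ang II mouse 2 (398). For QDG added to Ang II the count fell to 53 to 81 without Ang II mouse 2 or 5 or Ang II + QDG mouse 2, 3, 4 or 5. In Ang II + QDG vs. Control it was 0 to 7 without Control mouse 1 or 4 or Ang II + QDG mouse 1, 2 or 3, and 26 to 110 without Control mouse 2 or 5 or Ang II mouse 3. Transcript counts moved by over 1.5 times without Control mouse 1, 3 or 5, Ang II mouse 2 or 5 or Ang II + QDG mouse 4 in Ang II vs. Control, and without Control mouse 5, Ang II mouse 2 or 5 or Ang II + QDG mouse 1, 2, 3 or 4 for QDG added to Ang II. Median scaling and quantile normalization lowered the share of higher calls in Ang II vs. Control from 83.3% to 42.2 and 45.9%, and raised it in Ang II + QDG vs. Ang II from 29.0% to 40.7 and 50%. No paired analysis was possible because the 3 groups are different mice that the labels do not tie to each other; the mouse numbers used here follow accession order within a group. Each member's sum rested on at least 499 reads in a mouse. The intervals of Slc7a8, Slc7a9 and Slc7a7 were the widest, and the division of reads between overlapping transcripts is the authors' estimate.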
